A study of Arabidopsis thaliana with 24 samples.

Results

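The ATG8 genes of Arabidopsis thaliana encode small ubiquitin-like proteins of autophagy, and 6 of them were followed through the first minutes of light in dark-grown seedlings. The 6 genes are those that a rule lists by name, with no measured value in the rule. They are APG8A (AT4G21980), ATG8B (AT4G04620), ATG8E (AT2G45170), ATG8F (AT4G16520), ATG8G (AT3G60640) and APG8H (AT3G15580), spelled as in the array annotation. Each had 1 probe set, so they account for 6 of the 13037 gene symbols that a probe set names alone and for 6 of the 22217 probe sets measured, and no filter on low values was applied. The symbol APG8H needs care, because the RefSeq gene table gives its locus, AT3G15580, the synonym ATG8I, while ATG8H is a separate locus, AT3G06420. ATG8C (AT1G62040), ATG8D (AT2G05630) and ATG8H were also on the array and are described after the 6 members.

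Autophagy delivers cytoplasm and whole organelles to the vacuole inside double-membraned vesicles called autophagosomes. A newly made ATG8 protein is trimmed by the protease ATG4 to expose a glycine at its C-terminus, is activated by ATG7, is passed to ATG3 and is then attached to the lipid phosphatidylethanolamine in the growing membrane. There it helps the membrane to expand and binds the receptors that select cargo. Plants carry a family of ATG8 genes, and in leaves and seedlings autophagy is known for recycling nutrients during darkness and starvation and for removing damaged chloroplasts. The proteins called ATG8H and ATG8I lack the residues that ATG4 removes from the other members.

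Whole 4-day-old Col-0 seedlings were compared in 4 genotypes: wild type (wt), the ferrochelatase mutants fc2-1 and fc1-1 (fc2 and fc1 below), and flu. All had been stratified for 4 days at 4 °C, given 2 h of light to start germination, kept dark for 4 days at 22 °C, and then collected in the dark (0 min) or after 30 or 120 min of light at 120 µmol m-2 s-1. Ferrochelatases insert iron into protoporphyrin IX to make haem, FLU restrains tetrapyrrole synthesis in the dark, and flu and fc2 are studied as sources of singlet oxygen from different tetrapyrroles in the light. Each of the 12 groups had 2 arrays, labelled as biological replicates with nothing said of separate plates or harvests, so p-values measure the spread between these arrays and may be technical.

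The deposited values are log2 signals on Affymetrix arrays, with medians of 5.98 to 6.23 on the 24 arrays. Each difference below is that of 2 group means on the log2 scale, with its SE after ± (limma, n = 2 arrays in each group), and a probe set is called when its two-sided p, adjusted over all 22217 probe sets of that comparison, is under 0.05. Levels of different probe sets are not compared, since each has its own probes. The seedlings' chloroplast genes averaged 8.36 to 12.3 per array (6 of 6 listed genes measured), and the measured root genes averaged 3.91 to 5.04 (2 of 6). In whole seedlings, fewer cells of a type and less RNA per cell cannot be told apart. The seed genes M10, M17, OLEO3 and PAP85 averaged 5.28 to 9.62 per array and differed within groups. The levels of FC1, FC2 and FLU were not analysed here, so the genotype labels were not checked through them.

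**Figure D1:**
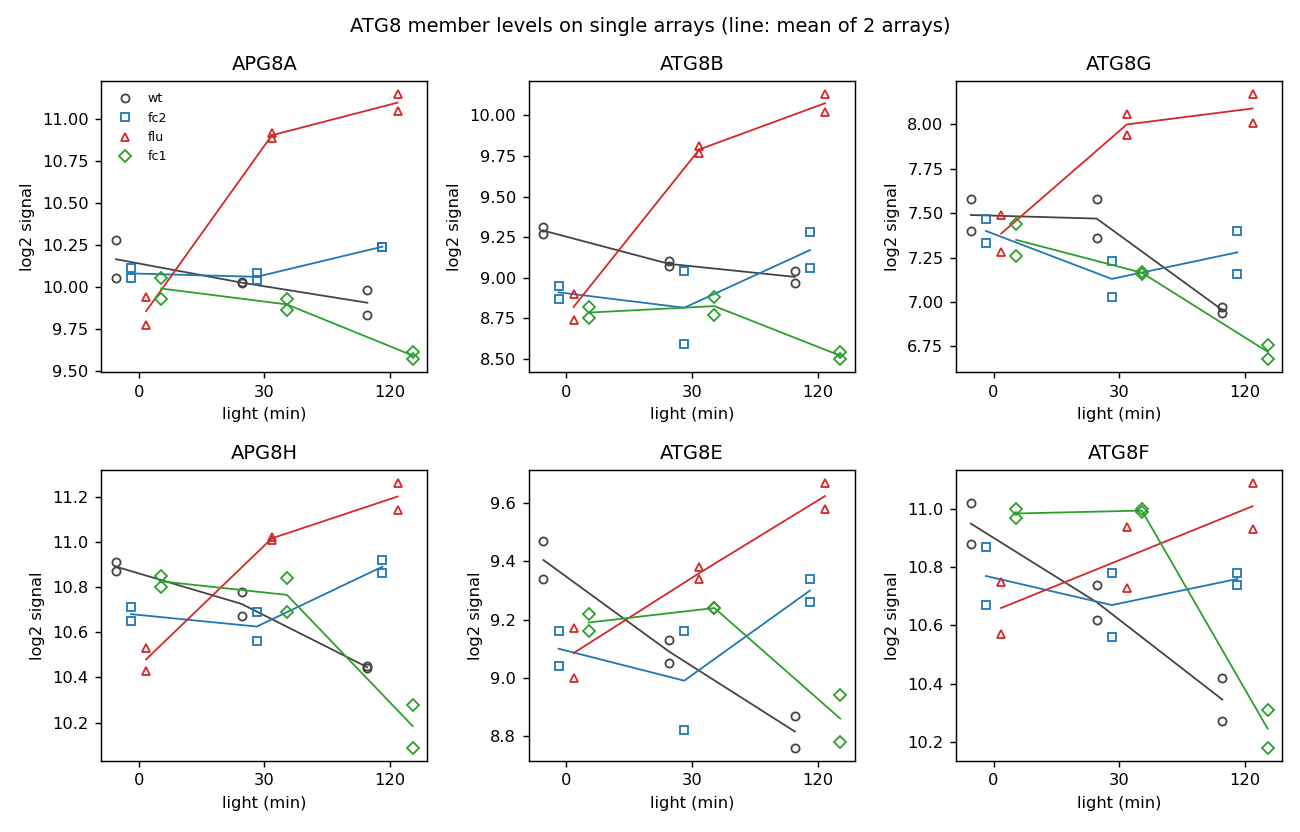
Log2 signal of the 6 ATG8 members on each of the 24 arrays, by genotype and minutes of light (evenly spaced times, a y axis of its own for each gene); each point is 1 array and lines join group means. In flu at 120 min every member stands at its highest group mean, and in fc1 at 120 min APG8A, ATG8B, ATG8F, ATG8G and APG8H stand at their lowest.

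In wild-type seedlings most of the ATG8 genes fell with light, with calls at 120 min and none at 30 min. After 120 min, 5 of the 6 members were called lower (18.8% of all probe sets were called lower), and the median difference of the 6 was -0.49, beside -0.03 over all probe sets. ATG8F stood at 10.88 and 11.02 on the dark arrays and at 10.42 and 10.27 after 120 min. ATG8E stood at 9.34 and 9.47 in the dark and at 8.76 and 8.87 after 120 min. The ranges of dark and 120 min arrays did not overlap for any of the 6 members. Dark and 30 min arrays were also apart for 5 of them, with none called at 30 min. How often arrays were apart over all probe sets was not counted. ATG8F fell by 0.6 ± 0.11 (adjusted p = 0.000395), ATG8E by 0.59 ± 0.11 (adjusted p = 0.000373) and ATG8G by 0.54 ± 0.12 (adjusted p = 0.00197). APG8H fell by 0.45 ± 0.09 (adjusted p = 0.00108). APG8A fell by 0.26 ± 0.1 and lay close to the threshold (adjusted p = 0.0471). ATG8B, the member not called, differed by -0.29 ± 0.12 (adjusted p = 0.0837).

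At 30 min none of the 6 members was called in wild type (6.41% of all probe sets were called), with differences from -0.31 to -0.02 and 2 members at an unadjusted limma p under 0.05. Between 30 and 120 min, 3 members were called lower (16.2% of all probe sets were called lower). ATG8G, at 7.58 and 7.36 after 30 min and at 6.94 and 6.97 after 120 min, fell by 0.51 ± 0.12 over this step (adjusted p = 0.00323). ATG8F fell by 0.33 ± 0.11 and APG8H by 0.28 ± 0.09. The step count was lower when any 1 of the 4 arrays compared was left out. Such a fit leaves 1 array in a group, and calls over all probe sets can be lost in it too. Scaling the arrays to the reference genes AT4G34270 and AT2G28390 raised the median over all probe sets at 120 min from -0.03 to a value of 0.18. Then 2 members, ATG8E (-0.38) and ATG8F (-0.39), were called lower against the dark, beside 1676 of all probe sets (4184 without the scaling). The reference genes varied too, with ranges of group means of 0.41 and 0.76. They averaged 7.61 and 7.36 on the 2 wt arrays of 120 min. As deposited, the member median relative to the median of all probe sets was -0.46. Scaling whole arrays shifts both alike and leaves this value unchanged, so it is no check on the scaled counts.

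In the ferrochelatase 1 mutant members were again called lower at 120 min. After 120 min of light 5 of the 6 members were called lower in fc1 (19.1% of all probe sets were called lower), with a median of -0.52. ATG8F stood at 10.97 and 11 in the dark, at 11 and 10.99 after 30 min, and at 10.31 and 10.18 after 120 min. The arrays of 0 and 30 min thus shared a range, and both arrays of 120 min lay below it. ATG8F fell by 0.74 ± 0.11 against the dark (adjusted p = 4.18e-05), APG8H by 0.64 ± 0.09 (adjusted p = 2.4e-05), ATG8G by 0.63 ± 0.12, APG8A by 0.4 ± 0.1 and ATG8E by 0.33 ± 0.11. ATG8B differed by -0.27 ± 0.12 (adjusted p = 0.102).

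At 30 min in fc1 no member was called (7.22% of all probe sets were called), with 0 members at an unadjusted limma p under 0.05 and differences of -0.19 to 0.05. From 30 to 120 min 5 members were called lower (13.6% of all probe sets were called lower), ATG8F by the most (0.75 ± 0.11, adjusted p = 6.09e-05). That count was lower when any 1 of the 4 arrays compared was left out, which leaves 1 array in a group. Calls over all probe sets can be lost in such fits too, so this is not read as a trait of the members. With the reference genes as the scale, 3 members stayed lower at 120 min against the dark, while the median over all probe sets was 0.25 in place of -0.01. In that setting 1779 of all probe sets were called lower, in place of 4246.

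In flu the direction was the opposite, and calls were already made at 30 min. After 30 min 5 of the 6 members were called higher (24.2% of all probe sets were called higher), and after 120 min all 6 were (24.3% were called higher). Their medians were 0.58 and 0.71, beside 0.06 and 0.01 over all probe sets. APG8A and ATG8B had the largest estimates and stood at 2.37 and 2.39 times their dark levels at 120 min.

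APG8A stood at 9.77 and 9.94 on the dark arrays of flu, at 10.92 and 10.89 after 30 min, and at 11.15 and 11.05 after 120 min. ATG8B stood at 8.74 and 8.9 in the dark, at 9.77 and 9.81 after 30 min, and at 10.02 and 10.13 after 120 min. For both genes the 3 times did not overlap. APG8A rose by 1.05 ± 0.1 at 30 min (adjusted p = 1.22e-07) and by 1.24 ± 0.1 at 120 min (adjusted p = 3.39e-09). ATG8B rose by 0.97 ± 0.12 (adjusted p = 3.65e-06) and 1.25 ± 0.12 (adjusted p = 6.35e-08).

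ATG8G and APG8H were called at both times, with smaller estimates. ATG8G went from 7.28 and 7.49 in the dark to 7.94 and 8.06 at 30 min and 8.17 and 8.01 at 120 min, rising by 0.62 ± 0.12 and then 0.7 ± 0.12 against the dark (adjusted p = 0.000395 and 7.33e-05). APG8H went from 10.43 and 10.53 to 11.02 and 11.01 and to 11.14 and 11.26, rising by 0.54 ± 0.09 and 0.72 ± 0.09 (adjusted p = 0.000132 and 3e-06). The 30 and 120 min arrays of ATG8G overlapped, and those of APG8H did not.

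ATG8E and ATG8F had the smallest estimates in flu. ATG8E went from 9 and 9.17 in the dark to 9.38 and 9.34 at 30 min and 9.58 and 9.67 at 120 min, rising by 0.27 ± 0.11 (adjusted p = 0.0465) and 0.54 ± 0.11 (adjusted p = 0.000438). ATG8F stood at 10.57 and 10.75 in the dark, at 10.94 and 10.73 after 30 min and at 10.93 and 11.09 after 120 min. Its 30 min arrays overlapped the dark ones, with a difference of 0.17 ± 0.11 (adjusted p = 0.214), and it rose by 0.35 ± 0.11 at 120 min (adjusted p = 0.016). The difference at 30 min was 85% of that at 120 min for APG8A, 78% for ATG8B, 89% for ATG8G, 75% for APG8H, 50% for ATG8E and 49% for ATG8F. The step from 30 to 120 min gave no called member (37% of all probe sets were called), with 2 members at an unadjusted limma p under 0.05 and differences of 0.09 to 0.29.

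Other measures moved with the flu arrays. The chloroplast genes averaged 11.05 and 11.15 in the dark, 10.32 and 10.05 at 30 min, and 8.75 and 8.36 at 120 min, and 5 of the 6 were called lower at 30 min (23.8% of all probe sets were called lower) and at 120 min (21.9%), with the remaining 1 called higher. The 2 measured root genes averaged 4.36 and 4.08 in the dark, 4.86 and 4.88 at 30 min, and 4.63 and 5.04 at 120 min, so the arrays in light lay above the dark ones. These seed genes averaged 8.71 and 8.48, 9.28 and 9.02, and 9.62 and 7.61 at these times. The spread of all values on an array, 2.28 to 2.42 as an SD over the series, was lowest on the flu arrays of 30 min (2.32 and 2.28). The part of these in the ATG8 results was not tested. With seed-maturation level as a covariate 5 members were called higher in flu at 30 min and 6 at 120 min. Over all probe sets 5254 and 5421 were called higher in that fit. With array spread as a covariate 4 and 6 members were called higher, beside 3042 and 5705 of all probe sets (5384 at 30 min without it). Array spread was lowest in flu at 30 min, so this fit does not cleanly separate spread from group.

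**Figure D2:**
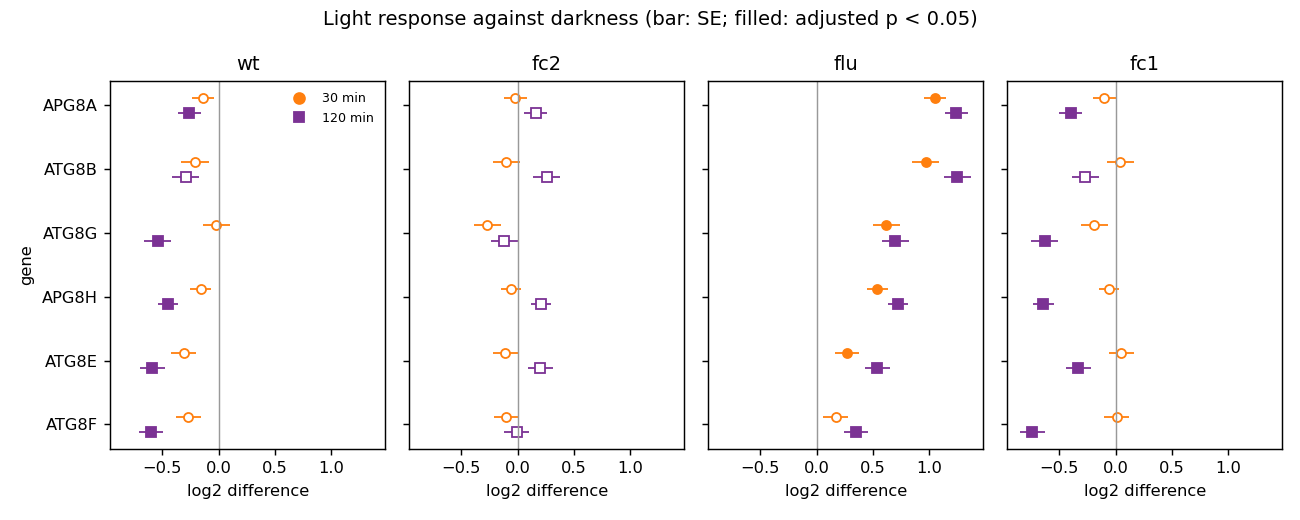
Log2 difference from the dark (0 min) of each ATG8 member after 30 and 120 min of light in wt, fc2, flu and fc1; points are limma estimates, bars are ± SE, and filled points are called (adjusted p under 0.05). Points for flu lie to the right of 0, while those for wt and fc1 at 120 min lie to the left.

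In fc2 no ATG8 member was called against its own dark level. At 30 min the differences were -0.27 to -0.02 (3.02% of all probe sets were called), with 1 member at an unadjusted limma p under 0.05, and at 120 min -0.12 to 0.26 (24.8% were called), with 2 such members. ATG8F, for example, stood at 10.87 and 10.67 in the dark, at 10.56 and 10.78 after 30 min, and at 10.78 and 10.74 after 120 min. The arrays of the 3 times overlapped for this gene. At 120 min the median of the 6 members was 0.18, beside -0.04 over all probe sets. The dark and 120 min arrays of 4 members were apart, which was not counted over all probe sets. Between 30 and 120 min 1 member was called higher (9.38% of all probe sets were called higher). It was ATG8B, which went from 8.59 and 9.04 to 9.06 and 9.28 and rose by 0.36 ± 0.12 (adjusted p = 0.0454), from replicates that differed by more than any other pair of this gene. The call in this step was lost without replicate 1 of fc2 at 30 min or without replicate 2 of fc2 at 120 min. The count rose without replicate 2 of fc2 at 30 min. These fits leave 1 array in a group, and calls over all probe sets can change in them too.

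In the dark 0 to 2 members were called between a mutant and wild type. No member was called between fc2 and wt (0.036% of all probe sets were called), although 3 had an unadjusted limma p under 0.05 and the differences were -0.38 to -0.09. Between flu and wt 2 members were called lower (1.7% of all probe sets were called lower): ATG8B, at -0.47 ± 0.12 (adjusted p = 0.0376), and APG8H, at -0.41 ± 0.09 (adjusted p = 0.0196). All 6 differences between flu and wt were below 0 (-0.47 to -0.11, median -0.31, beside -0.01 over all probe sets). Of the members, 5 had an unadjusted limma p under 0.05. In 5 the arrays did not overlap, which was not counted over all probe sets. Between fc1 and wt ATG8B was called lower (1.43% of all probe sets were called lower), at -0.51 ± 0.12 (adjusted p = 0.0358), and 1 member had an unadjusted limma p under 0.05. ATG8B stood at 9.31 and 9.27 in dark wt and at 8.74 to 8.95 on the 6 dark arrays of the mutants, which did not reach the wt arrays. The calls for flu and fc1 were lost when any 1 of the 4 arrays compared was left out, which leaves 1 array in a group. Calls over all probe sets can be lost in such fits too, so this is not read as a trait of the members.

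After 30 min of light flu had moved above wild type. There 4 members were called higher (21.4% of all probe sets were called higher): APG8A by 0.88 ± 0.1 (adjusted p = 1.19e-06), ATG8B by 0.71 ± 0.12 (adjusted p = 0.000149), ATG8G by 0.53 ± 0.12 (adjusted p = 0.00187) and APG8H by 0.29 ± 0.09 (adjusted p = 0.0191). ATG8E was 0.27 ± 0.11 above wt and did not pass (adjusted p = 0.0576). No member was called in fc2 against wt (1.52% of all probe sets were called), with differences of -0.34 to 0.04 and 2 members at an unadjusted limma p under 0.05. None was called in fc1 against wt either (18.4% were called), with differences of -0.3 to 0.31 and 3 such members, and 1 was called without replicate 2 of wt at 30 min.

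After 120 min the genotypes were spread out. In flu all 6 members stood above wild type (28.4% of all probe sets were called higher), by 0.66 ± 0.11 for ATG8F (adjusted p = 7.53e-05) to 1.19 ± 0.1 for APG8A (adjusted p = 7.49e-09). ATG8G, at 6.94 and 6.97 in wt and at 8.17 and 8.01 in flu, was 1.13 ± 0.12 higher (adjusted p = 2.75e-07). ATG8E, at 8.76 and 8.87 in wt and at 9.58 and 9.67 in flu, was 0.81 ± 0.11 higher (adjusted p = 5.72e-06). Against the dark of its own genotype ATG8G had risen by 0.7 in flu and fallen in wt, and ATG8E had risen by 0.54 in flu and fallen in wt.

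In fc2 at 120 min 4 members stood above wild type (9.71% of all probe sets were called higher). ATG8E was at 9.34 and 9.26 in fc2 and 0.49 ± 0.11 higher (adjusted p = 0.00437). APG8H, at 10.92 and 10.86 in fc2 and at 10.45 and 10.44 in wt, was 0.45 ± 0.09 higher (adjusted p = 0.00235). ATG8F was 0.41 ± 0.11 higher and APG8A 0.34 ± 0.1 higher, while ATG8G (0.32 ± 0.12, adjusted p = 0.0728) and ATG8B (0.17 ± 0.12, adjusted p = 0.41) did not pass. In none of the 6 did the arrays of fc2 and wt overlap, but in the dark they were apart for 4 members with none called. How often this held over all probe sets was not counted. All 6 chloroplast genes were called lower in this comparison (7.53% of all probe sets were called lower), and their part was not tested. The count was 2 without either array of fc2 at 120 min. It was 0 with the reference genes as the scale, which put the median over all probe sets at -0.18 in place of 0.01 and ATG8B at -0.03, and 0 with a fit of the compared arrays alone. Over all probe sets these 2 settings called 634 and 611 higher, in place of 2157. In the values as deposited the member median relative to the median of all probe sets was 0.37. Scaling whole arrays shifts both alike, so this is no check on the counts under the scaling.

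In fc1 at 120 min 2 members stood below wild type (3.54% of all probe sets were called lower): ATG8B, at 8.5 and 8.54 against 8.97 and 9.04, by -0.49 ± 0.12 (adjusted p = 0.0184), and APG8A, at 9.61 and 9.57 against 9.83 and 9.98, by -0.32 ± 0.1 (adjusted p = 0.0467). The remaining 4 differed by -0.26 to 0.04. Both calls were lost without replicate 2 of wt at 120 min or without either array of fc1 at 120 min. These fits leave 1 array in a group, and calls over all probe sets can be lost in them too.

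**Figure D3:**
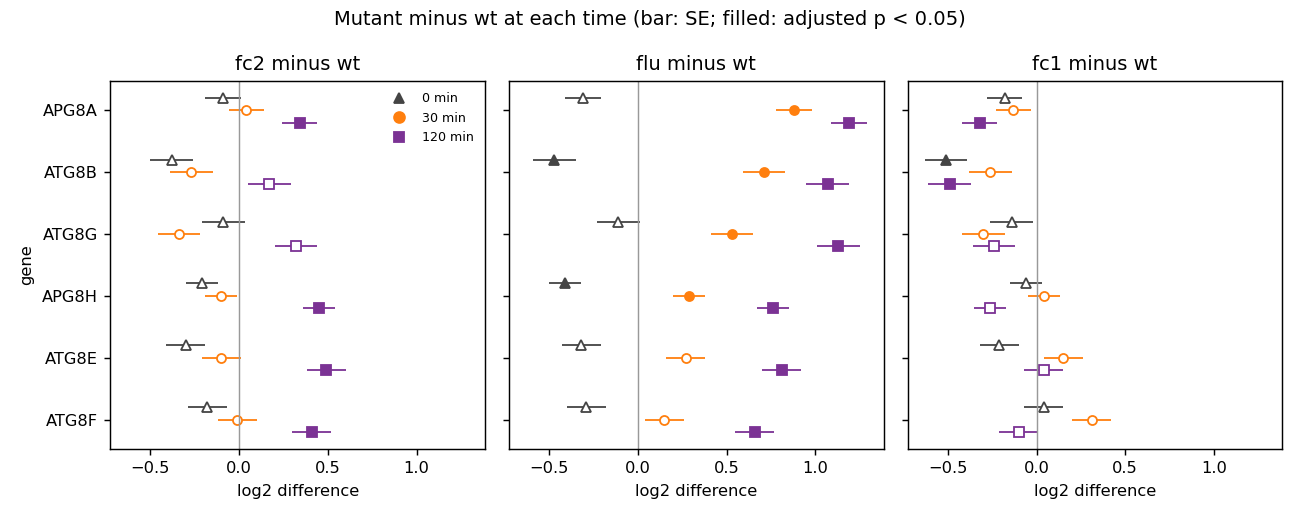
Log2 difference between each mutant and wt at 0, 30 and 120 min of light for the 6 ATG8 members; points are limma estimates, bars are ± SE, and filled points are called (adjusted p under 0.05). At 120 min all 6 points for flu are filled and lie to the right of 0, and 4 points for fc2 are filled.

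The difference between light responses was tested directly, as the change from 0 min in a mutant minus that in wt. In flu all 6 responses lay above those of wild type at 30 min (13.9% of all probe sets were called higher) and at 120 min (23% were called higher). At 120 min the gap was 1.54 ± 0.17 for ATG8B (adjusted p = 8.1e-07), 1.5 ± 0.14 for APG8A (adjusted p = 6.53e-08), 1.24 ± 0.17 for ATG8G, 1.16 ± 0.13 for APG8H, 1.13 ± 0.15 for ATG8E and 0.95 ± 0.16 for ATG8F (adjusted p = 9.22e-05). At 30 min it ran from 0.44 ± 0.16 for ATG8F (adjusted p = 0.0459) to 1.19 ± 0.14 for APG8A (adjusted p = 5.94e-06).

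In fc2 the responses did not differ by the test from those of wt at 30 min (0 members called, 0 at an unadjusted limma p under 0.05, 0.441% of all probe sets called). At 120 min 3 were higher (4.76% of all probe sets were called higher): ATG8E by 0.79 ± 0.15 (adjusted p = 0.00267), APG8H by 0.65 ± 0.13 (adjusted p = 0.00322) and ATG8F by 0.59 ± 0.16 (adjusted p = 0.0236). ATG8B (0.55 ± 0.17, adjusted p = 0.0527), APG8A (0.42 ± 0.14, adjusted p = 0.0616) and ATG8G (0.42 ± 0.17, adjusted p = 0.156) did not pass. With the reference genes as the scale 1 member was called, and 5 were called without the dimmest 40% of probe sets. Over all probe sets the scaling called 383 higher, in place of 1058. The fit without the dimmest 40% called 1384 higher among fewer probe sets tested, a share above the 4.76% as reported.

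In fc1 no response differed by the test from that of wt, at 30 min (0.189% of all probe sets were called, 1 member at an unadjusted limma p under 0.05) or at 120 min (1% were called, 0 such members). The differences at 120 min were -0.2 to 0.26, and their 95% intervals ran from -0.47 at the lowest to 0.59 at the highest, so a difference of that size is not excluded by these arrays. At 30 min the intervals ran from -0.52 to 0.69.

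The 2 mutants studied for singlet oxygen, fc2 and flu, differed in most ATG8 genes in the light, with no call in the dark. At 0 min no member was called between them (2.31% of all probe sets were called), with differences of 0.01 to 0.22 and 2 members at an unadjusted limma p under 0.05. At 30 min 5 members were lower in fc2 (25.4% of all probe sets were called lower). The widest gaps were -0.97 ± 0.12 for ATG8B (adjusted p = 4.93e-06), -0.87 ± 0.12 for ATG8G (adjusted p = 1.66e-05) and -0.85 ± 0.1 for APG8A (adjusted p = 2.06e-06). With array spread as a covariate 3 members were called lower at 30 min, beside 1890 of all probe sets (5636 without it). At 120 min 5 members were again lower in fc2 (21.5% of all probe sets were called lower), with -0.9 ± 0.12 for ATG8B, -0.86 ± 0.1 for APG8A and -0.81 ± 0.12 for ATG8G. At this time ATG8E differed by -0.32 ± 0.11 and APG8H by -0.31 ± 0.09. ATG8F did not pass at 30 min (-0.16, adjusted p = 0.237) or at 120 min (-0.25, adjusted p = 0.0952). The count at 120 min was lower without replicate 2 of fc2 or without replicate 2 of flu at 120 min. Such fits leave 1 array in a group, and calls over all probe sets can be lost in them too. The comparisons with wt above share the wt arrays, and these share the fc2 and flu arrays.

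Across the 12 groups the members varied by different amounts. The range of group means was 1.55 for ATG8B, 1.51 for APG8A, 1.37 for ATG8G, 1.02 for APG8H, 0.81 for ATG8E and 0.76 for ATG8F. All 6 had their highest group mean in flu at 120 min, and 5 had their lowest in fc1 at 120 min, the exception being ATG8E with its lowest in wt at 120 min. When the 12 groups were put in order of level, the arrays of most neighbours overlapped: of 11 neighbouring pairs, 1 was apart for ATG8F, 3 each for ATG8E and ATG8G, 4 for APG8A, and 5 each for ATG8B and APG8H. The Pearson correlation over the 12 group means, which share arrays and normalization, was 0.485 to 0.966 for the 15 pairs of members, with a median of 0.844.

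Of the 3 other ATG8 genes, ATG8C and ATG8D followed the members in direction. After 120 min they fell in wt by 0.49 ± 0.12 and 0.51 ± 0.1 and in fc1 by 0.49 ± 0.12 and 0.46 ± 0.1, and they rose in flu by 0.38 ± 0.12 and 0.67 ± 0.1. ATG8D stood at 8.67 and 8.75 in dark flu, at 9.35 and 9.37 after 30 min and at 9.32 and 9.44 after 120 min, so it had risen by 30 min (0.65 ± 0.1, adjusted p = 5.14e-05). The falls of both genes in wt and fc1 did not pass with the reference genes as the scale (-0.21 to -0.3). The rise of ATG8C in flu at 120 min did not pass without replicate 1 of dark flu (0.27) or without replicate 2 of flu at 120 min (0.28). Their correlations with the members over the group means were 0.691 to 0.962.

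ATG8H (AT3G06420), added to the list after its values were seen, had another course. In fc2 it stood at 7.89 and 7.8 in the dark, at 7.73 and 7.91 after 30 min and at 8.93 and 8.77 after 120 min, a rise of 1 ± 0.15 against the dark (adjusted p = 5.49e-05) in a comparison that called none of the 6 members. In wt it stood at 7.98 and 8.15 in the dark and at 8.31 and 8.45 after 120 min, a difference of 0.31 ± 0.15 (adjusted p = 0.129), and in fc1 the difference was 0.29 ± 0.15 (adjusted p = 0.156). Both were called higher with the reference genes as the scale (0.52 and 0.55). That scaling called 4284 of all probe sets higher in wt (2644 without it) and 6748 in fc1 (3395 without it). In flu ATG8H rose by 0.65 ± 0.15 at 120 min (adjusted p = 0.0014), but its dark flu arrays were 7.28 and 7.9. Without the first of them the difference was 0.34. It was higher in fc2 than in flu at 120 min by 0.61 ± 0.15 (adjusted p = 0.00321), while 5 members were lower there. Its correlations with the 6 members over the group means were -0.281 to 0.051.

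**Figure D4:**
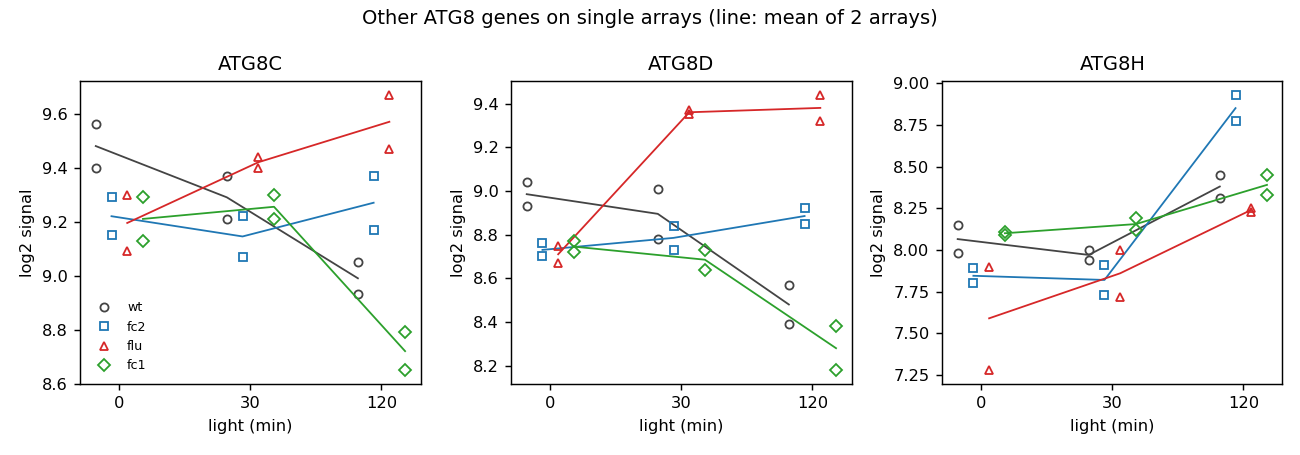
Log2 signal of ATG8C, ATG8D and ATG8H on each of the 24 arrays, by genotype and minutes of light (evenly spaced times, a y axis of its own for each gene); each point is 1 array and lines join group means. ATG8C and ATG8D are highest in flu at 120 min, and ATG8H is highest in fc2 at 120 min (8.93 and 8.77).

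The rest of the autophagy machinery was sparsely measured, with 12 of 42 listed genes on 13 probe sets. In wt after 120 min 1 probe set was higher (11.9% of all probe sets) and 2 were lower (18.8%), shares near those over all probe sets. In flu 7 of 13 were higher and none lower at 30 min (median 0.34, beside 0.06 over all probe sets, of which 24.2% were higher), and 8 were higher and none lower at 120 min (median 0.42, beside 0.01, with 24.3% higher). ATG101 (AT5G66930), a subunit of the kinase complex that starts autophagosome formation, rose in flu by 0.92 ± 0.14 at 120 min (adjusted p = 1.73e-05) and was 0.92 ± 0.14 above wt there. The loci AT1G77890 (0.79 ± 0.12), AT5G50230 (0.67 ± 0.1), AT3G59950 (0.65 ± 0.1), AT4G34660 (0.42 ± 0.12) and AT3G61960 (0.33 ± 0.08) also rose in flu at 120 min. ATG3, the enzyme that passes ATG8 to its lipid, rose by 0.46 ± 0.13 (adjusted p = 0.00566) and was chosen for mention after its values were seen.

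In fc1 after 120 min 3 of 13 were lower, beside 19.1% of all probe sets, and the lowest difference was -0.65. The locus AT5G06830 had a group mean of 5.4 in dark fc1 and of 4.75 after 120 min. AT2G37840 has 2 probe sets with different calls: 1 was lower at 120 min in wt by -0.5 ± 0.13 and in fc1 by -0.53 ± 0.13, while the other differed by -0.17 (adjusted p = 0.39) and -0.26 (adjusted p = 0.133). The locus AT1G49180 fell in wt, fc2 and fc1 by 0.38, 0.37 and 0.41. In fc2 at 120 min 1 machinery probe set of 13 was above wt (9.71% of all probe sets) and none below. Of 6 listed regulators 2 were measured. RAPTOR1 (AT3G08850), a subunit of the TOR kinase complex that restrains autophagy, rose in flu by 0.58 ± 0.13 at 120 min (adjusted p = 0.000913). HYH (AT3G17609), the homologue of the light-signalling factor HY5, rose with light in wt (1.53 ± 0.2), fc2 (1.01 ± 0.2) and fc1 (2.35 ± 0.2) at 120 min. It fell in flu by 1.79 ± 0.2 at 30 min and by 0.96 ± 0.2 at 120 min.

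The genes whose group means followed the mean of the 6 members most closely, by Pearson correlation over the 12 groups among probe sets with exactly 1 gene, were AT2G47380 (0.986), ARLA1B (AT3G49860, 0.98), AT5G47890 (0.976), AT3G03330 (0.975) and ATG8D (0.974). For single members the closest were AT5G58520 and AT3G11780 for APG8A (0.99 and 0.989), AT5G67490 and AT4G16840 for ATG8B (0.976 and 0.974), and AT5G01350 and AT3G52240 for ATG8E (0.942 and 0.942). They were AT5G32440 and AT1G05840 for ATG8F (0.957 and 0.948), AT2G42310 and AT5G63640 for ATG8G (0.981 and 0.979), and AT4G08690 and AT5G19860 for APG8H (0.962 and 0.955). The points share arrays and normalization, so these values are descriptions of 12 group means. Probes of related ATG8 genes may bind each other's transcripts, which was not tested.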

How the data were processed

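Total RNA of whole seedlings was labelled as biotinylated cRNA and hybridised to 24 Affymetrix arrays, per the labels' protocols. The authors deposited log2 signals made with RMA, per the submitters' processing notes. Its version is not given in the sources used here, and the values were used as deposited.

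With limma 3.58.1 (R 4.3.3), all 22217 probe sets on all 24 arrays were fitted with a mean for each group, using empirical Bayes moderation and two-sided tests. P-values were adjusted by Benjamini-Hochberg within each of 30 contrasts, and adjusted p under 0.05 was the threshold for a call. They were light against dark, 120 against 30 min, mutant against wt, the difference of their light responses, and fc2 against flu. Groups of 2 arrays were too small for an outlier test. Tables and figures used Python 3.11.15, pandas 2.3.3 and matplotlib 3.10.9.

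Names came from the platform table and the TAIR10.1 gene table, used for names only: 13171 probe sets had 1 gene, 482 several and 8564 none. The 6 members and the gene lists were chosen with earlier results of these data known. Genes named were the members, most of the 12 measured machinery genes and the 2 measured regulators. Of the machinery, AT3G53930 and AT3G18770 entered only the counts. Also named were the 5 genes most like the member mean and 2 most like each member. ATG8H was added after its values were seen.

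Alternatives were scaling to reference genes, quantile normalization, leaving out the dimmest 40% of probe sets, trend and robust moderation, the replicate number as a block, the seed-maturation mean as a covariate, a fit of the compared arrays alone, and leaving out each array in turn. A covariate for array spread was added after seeing the data. On 22217 simulated probe sets for fc2 (120 against 0 min), 93% of planted log2 changes of size 1 and 100% of size 2 were called, and 8 calls were false. Smaller changes were not simulated, so this does not cover the member differences in that comparison (-0.12 to 0.26).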

Additional observations from a re-analysis of the deposited data

Results flagged for a closer look

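The light responses of ATG8 members differed from those of wild type by a direct test in 15 cases, each given as the response of the mutant minus that of wt on the log2 scale, with n = 2 arrays per group. In flu at 30 min the 6 differences were 1.19 for APG8A, 1.18 for ATG8B, 0.59 for ATG8E, 0.44 for ATG8F, 0.64 for ATG8G and 0.7 for APG8H. In flu at 120 min they were 1.5 for APG8A, 1.54 for ATG8B, 1.13 for ATG8E, 0.95 for ATG8F, 1.24 for ATG8G and 1.16 for APG8H. In fc2 at 120 min 3 members differed, by 0.79 for ATG8E, 0.59 for ATG8F and 0.65 for APG8H.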

How the results depend on the processing

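Recomputing the number of members called gave 384 counts, of which 55, in 14 of 30 comparisons, moved by over 1.5 times. The other 16 comparisons, among them light against dark in flu at both times and flu against wt at 30 and 120 min, had no count that moved so far. Most of the 16 had 0 members called in every setting, so there was no call to lose. A change from 6 to 4 is within 1.5 times. Reference-gene scaling called 10329 of all probe sets higher for flu (30 against 0 min, 5384 as reported). For flu against wt at 30 min it called 10172 higher (4755 as reported). The median over all probe sets was then 0.33 in both comparisons. With reference-gene scaling the counts were 2 for wt (120 against 0 min), 3 for fc1 (120 against 0 min), 0 for wt (120 against 30 min), 3 for fc2 (120 against 30 min), 2 for fc1 (120 against 30 min), 0 for fc2 against wt at 120 min, 3 for fc1 against wt at 0 min and 1 for the difference of light responses of fc2 and wt at 120 min. Calls over all probe sets changed too. For fc1 against wt at 0 min 3728 were lower (318 as reported), and for fc2 against wt at 120 min 634 were higher (2157 as reported). For wt (120 against 30 min) 970 were lower (3590 as reported), and for fc2 (120 against 30 min) 2329 were higher (2085 as reported). Under this scaling APG8H in wt (120 against 30 min) turned to 0.01. With quantile normalization they were 0 for fc2 (120 against 30 min) and 1 for fc1 against wt at 30 min. Without the dimmest 40% of probe sets, and likewise with trend and robust moderation, they were 3 for fc2 (120 against 30 min), 2 for flu (120 against 30 min), 1 for fc1 against wt at 30 min and 5 for the difference of light responses of fc2 and wt at 120 min. With the replicate block the count for fc1 against wt at 120 min was 1, and no other count moved by over 1.5 times. Deviations of same-numbered arrays correlated between groups by -0.54 to 0.4 over 66 pairs of groups (median -0.01, 19 pairs over 0.1). Whether arrays of different groups share a batch was not tested. With the seed-maturation covariate the counts were 1 for flu against wt at 0 min and 1 for fc1 against wt at 120 min. With a fit of the compared arrays alone they were 0 for wt and 0 for fc2 (120 against 30 min), 0 for fc2 against wt at 120 min, 0 for flu against wt at 0 min, 0 for fc1 against wt at 120 min and 3 for fc2 against flu at 120 min. Over all probe sets 66 were then lower for flu against wt at 0 min (377 as reported). For fc1 against wt at 120 min 34 were lower (787 as reported), and for fc2 (120 against 30 min) 2297 were higher (2085 as reported). With array spread as a covariate, chosen after seeing the data, they were 3 for fc2 (120 against 30 min), 1 for fc1 against wt at 120 min and 3 for fc2 against flu at 30 min. Over all probe sets 1890 were then lower for fc2 against flu at 30 min (5636 as reported). For fc1 against wt at 120 min 449 were lower (787 as reported), and for fc2 (120 against 30 min) 2383 were higher (2085 as reported). The causes were not tested. Leaving out single arrays gave 0 to 2 members for wt, 0 to 2 for fc2 and 2 to 3 for fc1 (120 against 30 min), 2 to 3 for fc2 against wt, 0 to 2 for fc1 against wt and 3 to 5 for fc2 against flu at 120 min, 0 for flu and 0 for fc1 against wt at 0 min, 0 to 1 for fc1 against wt at 30 min, and 6 to 6 for flu against wt at 120 min. Of 2304 recomputed differences of single members, 2122 kept direction and side of the threshold, counting 54 that were called in neither fit and changed sign, 128 lost the call, 53 gained one and 1 turned. Fits that leave out 1 array leave 1 array in a group, and calls over all probe sets can be lost in them too. Signal over background was not analysed here.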
